A study of Mus musculus with 82 samples.

Results

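The hexagons described here lie on the low dorsal-ventral side of the mouse suprachiasmatic nucleus (SCN), the paired hypothalamic cell group that serves as the master circadian clock. They were chosen by position, with earlier results of these data known. The rule took anterior-posterior coordinates of 143, 191, 239, 287 or 335 and dorsal-ventral coordinates under 600. Medial-lateral coordinates were either under 1200 (medial, 8 hexagons) or 1360 or more (lateral, 5 hexagons). These 13 are part of 82 hexagons in the series, and 1 further medial hexagon was left out because its library held 11905 counts, under the minimum of 20000. All groups share one background, C57BL/6 mice at an age of 8 weeks, with no genotype or treatment named. Laser capture cut each hexagon (maximal radius 40 µm) out of a section stained with cresyl violet, and its RNA was sequenced with Smart-seq2, which amplifies full-length cDNA from a few cells.

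The labels name no animal, sex or time of day, give the coordinates without a unit, and do not say which end of an axis is dorsal or medial. The names medial and lateral therefore stand for low and high medial-lateral coordinates. Hexagons may share an animal, in which case the p-values below come out smaller than they should, and they reflect only how these hexagons vary. A hexagon holds several cells, and fewer cells of a type and less RNA per cell cannot be told apart.

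Each of the 5 sections gave 1 lateral hexagon, and 1 to 3 medial hexagons. Medial hexagons had dorsal-ventral coordinates of 302 to 573 and lateral hexagons of 461 to 579, with means of 454 ± 89.1 (SD, n = 8) and 527 ± 48.3 (n = 5). That offset did not pass an exact two-sided permutation test over all 1287 divisions of the 13 hexagons (p = 0.120, adjusted p = 0.241 over 4 measures). Total counts ran from 219947 to 2843366 in medial and from 250456 to 1800916 in lateral hexagons (exact permutation p = 0.681). Genes detected numbered 11956 ± 827 (SD, n = 8) and 11391 ± 549 (n = 5), with an exact permutation p of 0.209.

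**Figure D1:**
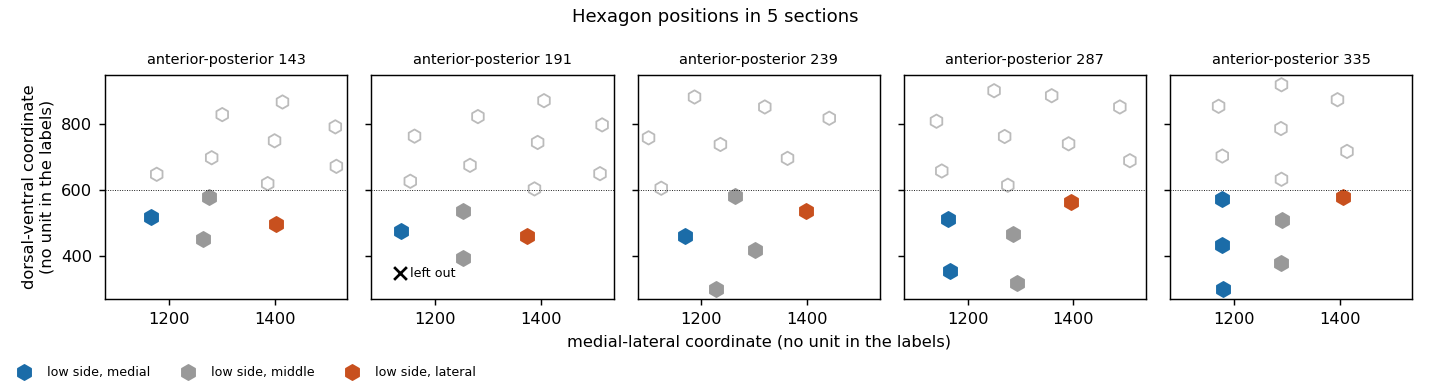
Positions of the hexagons in the 5 sections, with the medial-lateral coordinate on the x axis and the dorsal-ventral coordinate on the y axis, neither with a unit in the labels. Filled hexagons lie under the dotted line at 600: 8 medial (blue), 11 middle (grey) and 5 lateral (orange), the cross is the library left out for depth, and open hexagons are on the high dorsal-ventral side.

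SCN neurons release GABA together with peptides. In textbook accounts, neurons of the dorsomedial shell make vasopressin (Avp), core neurons make vasoactive intestinal peptide (Vip) and gastrin-releasing peptide (Grp), and enkephalin (Penk) neurons lie in several subregions. The clock itself is a transcriptional loop in which the activators CLOCK and BMAL1 (gene Arntl) bind E-box elements and switch on the Per and Cry genes, whose proteins then repress the activators. The orphan receptors of the ROR and REV-ERB (Nr1d1, Nr1d2) families add a further loop on Arntl.

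Avp, Penk and Per1 are the markers given for these hexagons. Avp and Per1 are also known clock-controlled genes with E-boxes near their start sites, so the 250 bases before their RefSeq starts (GRCm38.p6) are shown, 5′ to 3′ on the coding strand. The Avp stretch is chr2:130582589-130582838 on the minus strand and the Per1 stretch is chr11:69098699-69098948 on the plus strand. Capitals mark the E-box CACGTG in both and the D-box TTATGNAA in Per1, the element bound by DBP, TEF and HLF.
Avp: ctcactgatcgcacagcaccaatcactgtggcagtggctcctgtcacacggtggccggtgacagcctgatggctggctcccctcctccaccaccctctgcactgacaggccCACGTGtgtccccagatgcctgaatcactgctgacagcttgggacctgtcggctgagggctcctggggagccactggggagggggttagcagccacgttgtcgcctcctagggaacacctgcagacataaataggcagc
Per1: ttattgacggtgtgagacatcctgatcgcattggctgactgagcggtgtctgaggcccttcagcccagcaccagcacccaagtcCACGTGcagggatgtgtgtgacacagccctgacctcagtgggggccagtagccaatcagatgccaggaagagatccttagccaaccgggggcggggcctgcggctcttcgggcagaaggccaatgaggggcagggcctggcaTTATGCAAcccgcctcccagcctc

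The first base of the E-box lies 139 bases before the Avp start and 166 bases before this Per1 start, and that of the D-box 24 bases before it. Searched on both strands in the 300-base RefSeq windows, which add 50 bases after the start, the E-box letters occur in 7.15% of 32851 promoters and the D-box letters in 3.385%. The cAMP element TGACGTCA occurs in 1.79%. Of 18 peptide and clock genes with a promoter entry, 6 hold the E-box, 2 the D-box and 1 the cAMP element. RefSeq lists another start for Per1, with none of the 3 motifs in its window.

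Lateral hexagons were compared with medial ones over 11014 genes with edgeR's quasi-likelihood test, in a fit of 64 libraries with section as a factor. No gene passed an adjusted p of 0.05 (0% called). At an unadjusted p under 0.05 stood 721 genes, 344 of them higher (3.12% of those tested) and 377 lower (3.42%) in lateral hexagons. The smallest adjusted p was 0.0782, for mt-Nd5. DESeq2 on the same model called 21 genes, 4 higher and 17 lower, at adjusted p-values from 0.0158 to 0.0498. The 4 higher were mt-Nd5, Cox6b1, Calb2 and Gprin1. Among the lower were Rorb, Naa60, Dnmt1, Prrc2b, Trappc11, Nisch, Syndig1, Ascc2, Sumf1, Elovl7, Tmem39a and Pecam1. Gene by gene, the results below are therefore levels and their spread, with CPM being the count scaled to a common TMM-adjusted library total and log2 changes taken as lateral minus medial with a standard error (SE). The median log2 change of all genes tested was -0.02, and 5341 of the 11014 were positive.

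The 1 measure that passed was the share of counts from mitochondrially encoded genes. It was 1.44% ± 0.20 (SD, n = 8) in medial and 1.88% ± 0.26 (n = 5) in lateral hexagons, a difference of 0.441 percentage points (exact permutation p = 0.00622, adjusted p = 0.0249). Medial shares ran from 1.25% to 1.76% with a median of 1.34%. The lateral shares were 1.97%, 1.85%, 1.51%, 1.85% and 2.23% in sections 143, 191, 239, 287 and 335. The groups overlapped in the lateral hexagon of section 239, yet each lateral hexagon lay above every medial hexagon of its own section, in 5 of 5 sections. With the section as a block, that is over the 96 ways to place the lateral hexagon within each section, the mean difference was 0.444 percentage points (exact permutation p = 0.0104, the smallest this design allows, adjusted p = 0.0417). This block was added after seeing the data. The lateral hexagon was also above every medial one in each of the 5 library sets with both groups, a set being read from the letter that opens each description label. The mean of the middle hexagons lay between, at 1.70% ± 0.26 (n = 11), and their range of 1.38% to 2.30% spanned most of both groups.

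That result rests on leaving out the shallow library, a medial hexagon of section 191 with 8.02% mitochondrial counts and 2549 genes detected: with it kept, the difference was -0.290 percentage points. With single hexagons left out the exact permutation adjusted p ranged from 0.00808 to 0.0889. It was 0.0889 without the lateral hexagon of section 335, 0.0646 without that of section 143, and 0.0505 without the medial hexagon of section 191, either medial hexagon of section 287 or the medial hexagon of section 335 at dorsal-ventral coordinate 573. With medial hexagons limited to a dorsal-ventral coordinate of 430 or more it was 0.0693. RNA quality in these sections was not tested.

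mt-Nd5, a subunit of respiratory complex I encoded at chrM:11742-13565 (plus strand), stood at 1613 to 2456 CPM in medial hexagons, with a median of 1996 CPM. Its lateral levels were 3458, 3056, 2341, 2881 and 3501 CPM in section order. In 4 of 5 lateral hexagons the level lay above every medial hexagon. The log2 change was 0.59 (SE 0.12, edgeR adjusted p = 0.0782). Its exons overlap mt-Nd6 on the other strand, and the strand setting of the counting is not given in the sources used.

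All 12 tested members of the list had a positive log2 change, with a median of 0.46, and 6 of them stood at an unadjusted p under 0.05 (mt-Nd5, mt-Cytb, mt-Co1, mt-Nd4, mt-Nd2 and mt-Nd1). These counts restate the mitochondrial share and are not separate evidence for it. mt-Co1, the catalytic subunit of cytochrome c oxidase, had medial levels of 4061 to 6680 CPM. Its lateral levels were 6936, 6815, 5378, 6256 and 7649 CPM, above every medial hexagon in 3 of 5 cases (log2 change 0.46, SE 0.12, edgeR adjusted p = 0.266). mt-Cytb, the cytochrome b of complex III, averaged 2597 ± 517 CPM (n = 8) and 3559 ± 767 CPM (n = 5).

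Nuclear genes of the respiratory chain, grouped by name after their values were seen, gave mostly positive values. Of 77 tested, 75 had a positive log2 change with a median of 0.39, and 26 stood higher and 0 lower at an unadjusted p under 0.05. Of all 11014 genes, 5341 were positive, 344 stood higher and 377 lower at that p. The count by complex was 8 of 37 for complex I, 0 of 4 for complex II, 3 of 9 for complex III, 7 of 11 for complex IV and 8 of 16 for ATP synthase. Cox6b1, a complex IV subunit at chr7:30616861-30626151 (minus strand), ran from 144 to 254 CPM in medial hexagons. Its lateral levels were 395, 295, 225, 355 and 418 CPM (log2 change 0.80, SE 0.19, edgeR adjusted p = 0.220). Only the lateral hexagon of section 239 fell inside the medial range. Cyc1, cytochrome c1 of complex III, had no overlap at all, with 96.1 to 184 CPM in medial and 215 to 267 CPM in lateral hexagons. Atp5g1, an isoform of the ATP synthase c subunit, averaged 170 ± 50.2 CPM (n = 8) and 294 ± 114 CPM (n = 5), and Cox7a2 averaged 199 ± 39.4 and 297 ± 57.9 CPM.

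**Figure D2:**
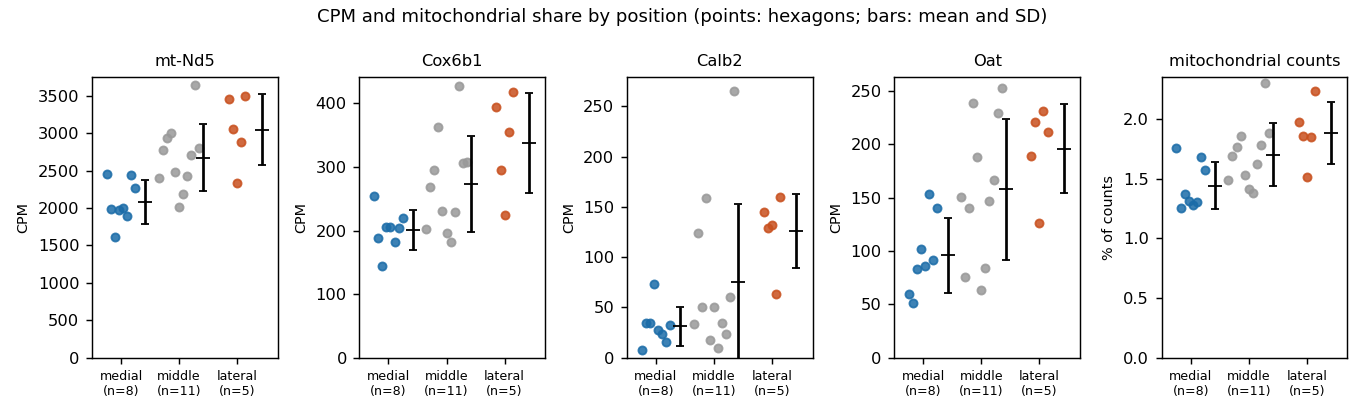
CPM of mt-Nd5, Cox6b1, Calb2 and Oat, and the percent of counts from mitochondrially encoded genes, in medial (n = 8), middle (n = 11) and lateral (n = 5) low dorsal-ventral hexagons. Points are hexagons and bars the mean and SD; lateral mitochondrial shares sit between 1.51% and 2.23% against 1.25% to 1.76% in medial hexagons, with middle ones across both.

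Calb2 encodes calretinin, a calcium-binding protein of neuron subsets (chr8:110137502-110168210, minus strand). Its medial levels ran from 7.75 to 73.4 CPM, with a median of 29.7 CPM. The lateral levels were 145, 129, 132, 63.8 and 160 CPM, so that the hexagon of section 287 alone fell inside the medial range, and there below the medial hexagon of dorsal-ventral coordinate 512. The log2 change was 2.28 (SE 0.58, edgeR adjusted p = 0.220). Oat, the mitochondrial ornithine aminotransferase, averaged 95.9 ± 35.5 CPM (n = 8) in medial and 196 ± 41.9 CPM (n = 5) in lateral hexagons. A pair of cytoskeletal genes was also named by the rule for genes of smallest p: Stmn3, a stathmin that binds tubulin (438 ± 74.0 and 640 ± 150 CPM), and the alpha tubulin Tuba1b (384 ± 50.9 and 551 ± 66.5 CPM), whose exons overlap Gm49450 on the same strand. Every adjusted p in this group was 0.220 or 0.266.

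Among the peptides, Avp had the highest level per transcript length in both groups. Its median was 1045 RPKM in medial and 210 RPKM in lateral hexagons. In CPM (chr2:130580620-130582554, minus strand), Avp ran from 266 to 1114 in medial hexagons with a median of 605 CPM. The lateral levels were 123, 430.5, 124, 331 and 68.8 CPM. In sections 143, 191, 239 and 335 the lateral hexagon lay below every medial one. In section 287 it lay above the medial hexagon at 512, which held the least Avp of the medial group. The log2 change was -1.86 (SE 0.87), at an unadjusted p of 0.0369 and an edgeR adjusted p of 0.703. Over the 24 low dorsal-ventral hexagons the fitted slope was -0.89 per 100 medial-lateral units (SE 0.22, edgeR adjusted p = 0.315), and the middle hexagons averaged 377 ± 244 CPM (n = 11).

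Penk lies at chr4:4133531-4138819 (minus strand) and its exons overlap A830012C17Rik on the other strand. It spread widely among medial hexagons, from 46.5 to 941 CPM with a median of 228 CPM. The 3 medial hexagons of section 335 held 553, 941 and 329 CPM, and those of the other sections 306 CPM or less. The lateral levels were 133, 36.4, 77.0, 172 and 62.3 CPM. These overlapped the medial range in 4 of 5 cases, and the log2 change of -1.29 (SE 0.80, edgeR adjusted p = 0.877) did not pass. The middle hexagons averaged 299 ± 231 CPM (n = 11), close to the medial mean of 315 ± 304 CPM.

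The ranges of the remaining peptides overlapped between the groups. Vip was uneven: 2 medial and 2 lateral hexagons were at 0 CPM, and the highest levels in each group came from section 287, with 1689 CPM in a medial and 519 CPM in the lateral hexagon. Prok2, a secreted signal that relays SCN output, averaged 367 ± 367 CPM (n = 8) and 183 ± 273 CPM (n = 5). Nms, neuromedin S, averaged 201 ± 78.4 and 177 ± 157 CPM, and Cck, cholecystokinin, 39.1 ± 34.2 and 44.8 ± 39.1 CPM. Grp was low in both, at 16.1 ± 18.4 and 29.6 ± 33.6 CPM. For Nms, 1 lateral hexagon lay above every medial one and 2 lay below every medial one. For Cck 1 lateral hexagon lay below every medial one, and for Grp 1 lay above. Of 9 tested members of the peptide list, 0 were higher and 1 (Avp) lower at an unadjusted p under 0.05, with a median log2 change of -1.14. That median was -0.72 with the dorsal-ventral coordinate as a covariate, -0.73 with library set as a factor and -0.70 with medial hexagons at 430 or more.

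Proteins that store and process peptides differed in sign among themselves. Of 11 tested granins and processing enzymes, 2 were higher and 3 lower at an unadjusted p under 0.05. Their median log2 change was -0.23, and 0.04 with library set as a factor. The lower ones were Vgf, a granin-family precursor (medial median 125, lateral median 55.9 CPM), Chgb, chromogranin B (427 and 344 CPM), and Pcsk2, a prohormone convertase (576 and 435 CPM). The higher ones were Scg3 (181 and 216 CPM) and Scg5 (442 and 555 CPM). Every adjusted p among these 5 was 0.573 or more.

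Per1, a repressor of the clock loop (chr11:69095217-69109960, plus strand), ran from 126 to 320 CPM in medial hexagons with a median of 191 CPM. The lateral levels were 100, 147, 103, 124 and 90.2 CPM. In each of the 5 sections the lateral hexagon lay below every medial hexagon of that section, although the lateral hexagon of section 191 exceeded the medial one of section 143. The log2 change was -0.89 (SE 0.29), with an unadjusted p of 0.00271 and an edgeR adjusted p of 0.393. The middle hexagons averaged 145 ± 44.1 CPM (n = 11), between 210 ± 65.5 CPM (medial) and 113 ± 22.7 CPM (lateral).

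Rorb, a nuclear receptor of the ROR family that activates the clock and is abundant in the SCN (chr19:18930605-19111196, minus strand), had the smallest p of the genes lower in lateral hexagons with a mean of 20 CPM or more. Medial levels ran from 1228 to 2522 CPM with a median of 1926 CPM. The lateral levels were 888, 1407, 1033, 886 and 226 CPM, each below every medial hexagon of its section. Across sections the groups overlapped in 1 case, the lateral hexagon of section 191, and the lowest level came from section 335. The log2 change was -1.28 (SE 0.31, edgeR adjusted p = 0.220). The middle hexagons averaged 1224 ± 380 CPM (n = 11).

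**Figure D3:**
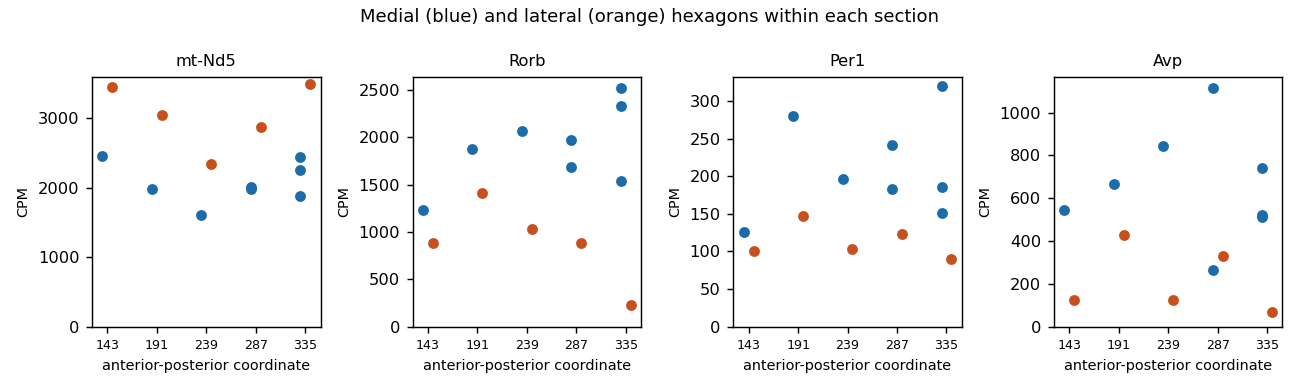
CPM of mt-Nd5, Rorb, Per1 and Avp within each section, with the anterior-posterior coordinate on the x axis, medial hexagons in blue and lateral hexagons in orange. The lateral hexagon is above every medial hexagon of its section for mt-Nd5 and below for Rorb and Per1 in 5 of 5 sections, and below for Avp in 4 of 5.

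The other clock genes gave mostly negative values. Of 10 tested repressors, 0 were higher and 3 lower at an unadjusted p under 0.05 (Per1, Per2 and Nr1d1), and 8 had a negative log2 change, with a median of -0.59. Per2 ran from 41.0 to 262 CPM in medial hexagons, and was 45.3, 104, 43.4, 83.8 and 38.0 CPM in lateral ones (log2 change -1.07, edgeR adjusted p = 0.688). Nr1d1, encoding REV-ERB alpha, ran from 295 to 660 CPM against 340, 276, 385, 315 and 182 CPM (log2 change -0.61). Cry2 had a positive log2 change of 0.38, with medians of 98.0 CPM (medial) and 104 CPM (lateral). The 5 activators all had negative values, with 2 (Rorb and Rora) at an unadjusted p under 0.05 and a median of -0.68. The gene Clock stood at medians of 227 and 216 CPM.

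Clock output factors and regulators of clock proteins had 0 higher and 3 lower (Hlf, Fbxl21 and Dbp) of 8 tested at an unadjusted p under 0.05 and a median log2 change of -0.79. Hlf, one of the factors that bind D-boxes, ran from 153 to 363 CPM in medial hexagons. Its lateral levels were 158, 170, 107, 112 and 37.4 CPM, below every medial hexagon of the section in 5 of 5 sections (log2 change -0.95, edgeR adjusted p = 0.501). Fbxl21, which takes part in CRY degradation, had a log2 change of -1.05 and Dbp, at 3.90 to 23.9 CPM in lateral hexagons, of -1.34. Their adjusted p-values were 0.663 and 0.705.

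**Figure D4:**
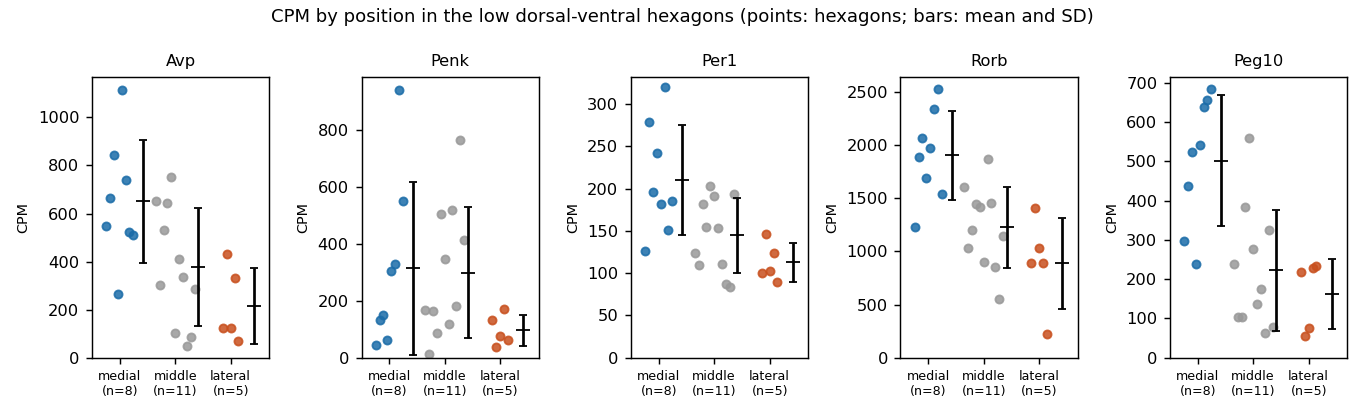
CPM of Avp, Penk, Per1, Rorb and Peg10 in medial (n = 8), middle (n = 11) and lateral (n = 5) low dorsal-ventral hexagons, points being hexagons and bars the mean and SD. Lateral Avp lies between 68.8 and 430.5 CPM against 266 to 1114 CPM in medial hexagons, and Peg10, chosen after its values were seen, has no overlap between medial and lateral.

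Transcription factors that mark SCN neurons had 0 higher and 3 lower of 8 tested at an unadjusted p under 0.05, with a median log2 change of -0.57. Besides Rorb, which is on both this list and the activator list, these were Lhx1, a LIM homeobox factor, and Zfhx3. Lhx1 reached 112 CPM in a medial hexagon, while the 5 lateral ones held 18.4 CPM or less, and the section 143 hexagons of both groups were at 0 (log2 change -2.27, edgeR adjusted p = 0.470). Zfhx3 ran from 157 to 432 CPM in medial and from 140 to 272 CPM in lateral hexagons. Six6, a homeobox factor of the developing hypothalamus, had medians of 145 and 74.1 CPM. Its lateral level lay below every medial hexagon of the section in 4 of 5 sections. Across sections the groups overlapped, with 2 of 5 lateral hexagons below every medial one.

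Receptors and signalling genes of the SCN were mixed, with 1 higher (Rgs10) and 2 lower (Calcr and Rgs16) of 12 tested at an unadjusted p under 0.05 and a median log2 change of -0.44. Calcr, the calcitonin receptor, ran from 29.2 to 299 CPM in medial hexagons. Its lateral levels were 15.3, 0, 0, 23.9 and 49.2 CPM, and 4 of these lay below every medial hexagon (log2 change -3.56, edgeR adjusted p = 0.537). Rgs16, a regulator of G protein signalling, ran from 264 to 1686 CPM and was 346, 434, 573, 682 and 92.0 CPM in lateral hexagons. Rgs10 ran from 0 to 107 CPM in medial hexagons and was 178, 83.2, 120, 35.9 and 194 CPM in lateral ones. The VIP receptor Vipr2 and the Prok2 receptor Prokr2 overlapped, with medians of 360 and 231 CPM and of 330 and 343 CPM.

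All 13 hexagons held GABA markers. Gad1, which makes GABA, had medians of 1019 CPM (medial) and 1096 CPM (lateral), with a log2 change of 0.09 (SE 0.18). None of 16 tested GABA genes stood at an unadjusted p under 0.05. Among vesicle release genes, 2 of 15 were higher (Cplx1 and Rab3a) and 0 lower, with a median of 0.24, or 0.36 with medial hexagons at 430 or more. Cplx1, complexin 1, ran from 30.6 to 300 CPM in medial hexagons and was 475, 157, 276, 208 and 681 CPM in lateral ones.

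In the axon list 2 of 13 were higher (Cntnap1 and Nefl) and 1 lower (Map1b). Cntnap1, a paranodal protein of myelinated axons, had medians of 8.23 and 79.0 CPM (log2 change 3.05, SE 0.88, edgeR adjusted p = 0.289). The median of that list was 0.33, and -0.22 when the 13 hexagons were fitted alone, a fit that tested 7 of its genes. Among immediate early genes, 0 of 9 were higher and 1 (Btg2) lower. Of 79 tested ribosomal protein genes, 63 had a positive log2 change, and 7 were higher and 0 lower, with a median of 0.12.

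Markers of other cells gave the following. The astrocyte list had 0 of 12 members at an unadjusted p under 0.05, a median log2 change of 0.30 with 11 positive, and summed levels of 3445 to 7167 CPM in medial and 4438 to 8048 CPM in lateral hexagons. The oligodendrocyte list also had 0 of 11, with a median of -0.81 and sums of 594 to 8580 and 1401 to 3599 CPM, whose medians were 2492 and 2941 CPM. That median log2 change was -0.12 with medial hexagons at a dorsal-ventral coordinate of 430 or more and -1.28 with the coordinate as a covariate. Oligodendrocyte precursor markers summed to 0 to 428 and 26.0 to 399 CPM. Microglial markers had 0 of 9 but all 9 values negative, with a median of -1.53 and sums of 35.0 to 788 and 3.90 to 196 CPM.

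Endothelial markers summed to 43.7 to 773 CPM in medial and 44.2 to 315 CPM in lateral hexagons, with a median log2 change of -0.80 over 7 tested genes. It was -1.75 with library set as a factor. Pecam1, an endothelial adhesion molecule, was at 0 in all 5 lateral hexagons and averaged 20.9 CPM in medial ones. The lateral hexagon lay below every medial one of its section in 4 of 5 sections (edgeR adjusted p = 0.220). The medial mean was 35.8-fold above a floor of 3 counts over the summed lateral counts, or 0.58 CPM. The deepest lateral libraries weigh most in that floor, so the ratio is no lower bound on the change in group means. With Pecam1 at that floor the list's median in the main model was -0.80. Mural markers summed to 10.9 to 528 and 27.3 to 118 CPM, with 1 of 3 tested (Vtn) lower at an unadjusted p under 0.05. Erythrocyte globin and heme genes summed to 10.8 to 422 and 29.9 to 272 CPM, with a median of 0.91, which was -0.09 with the dorsal-ventral coordinate as a covariate, 0.03 with library set as a factor and 0.40 with medial hexagons at 430 or more.

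Ependymal and tanycyte markers summed to 1.78 to 35.0 CPM in medial and 1.19 to 28.2 CPM in lateral hexagons, and meningeal markers to 2.16 to 314 and 0 to 42.9 CPM. No gene of these lists passed the low-count filter, and Tmem212 and Rax were at 0 in all 13 hexagons. Glutamatergic neuron markers summed to at most 101 and 136 CPM, with Slc17a7 and Tbr1 at 0 in all 13. Markers of neighbouring hypothalamic neurons summed to 7.19 to 46.5 and 5.93 to 21.7 CPM, with Kiss1 at 0 in all 13. The part of any of these cells in the differences above was not tested.

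**Figure D5:**
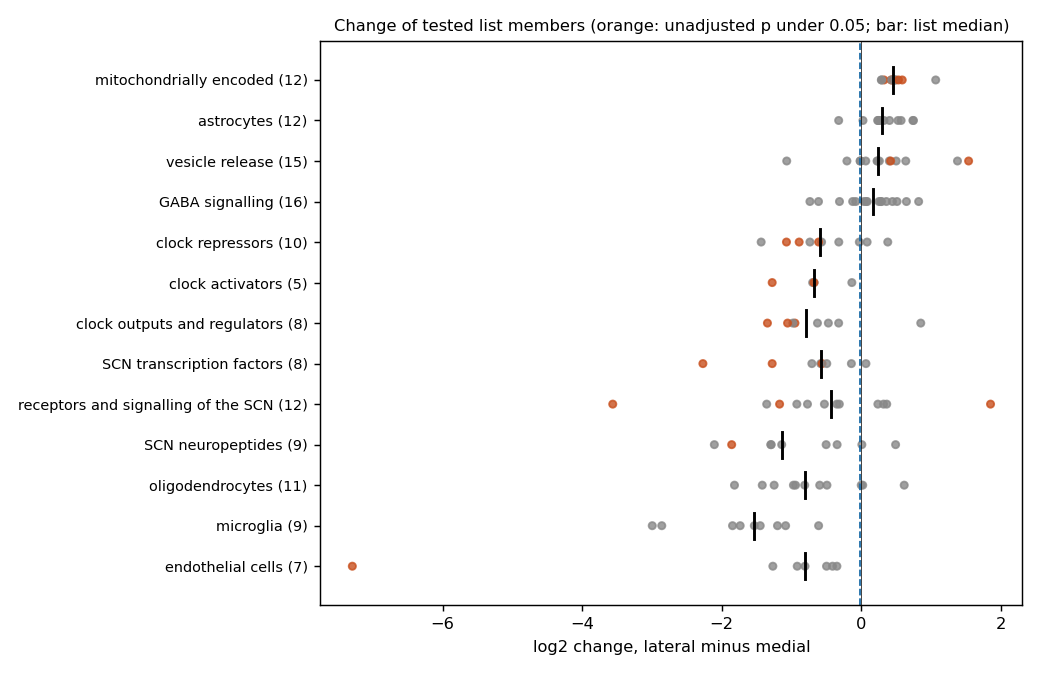
Log2 change (lateral minus medial, x axis) of the tested members of 13 lists, 1 point a gene, with orange for an unadjusted p under 0.05, a black bar for the list's median and a dashed line for the median of all genes (-0.02). The mitochondrially encoded genes lie right of 0, with a median of 0.46, and the microglial genes left of it, with a median of -1.53; the leftmost point is Pecam1, at 0 in every lateral hexagon, whose fitted value is no measure of size.

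Genes whose groups did not overlap were few. In 10 of 11014 genes (0.0908%) every lateral hexagon lay above every medial one, and in 23 (0.209%) every lateral hexagon lay below. Under random labels each pattern arises in 1 of the 1287 divisions, a share close to the 0.0908% of genes with lateral levels above. Those 10 genes are therefore not set apart from chance. Whether the 23 genes below exceed chance was not tested. Besides Cyc1, those above were Gprin1, Lypd1, Fxyd6, Dkk3, Ankrd29, Rnf187, Dagla, Syt7 and Ddc. Gprin1, a G protein-regulated inducer of neurite outgrowth, was at 10.8 CPM or less in medial and at 27.9 to 49.3 CPM in lateral hexagons. Fxyd6, a regulator of the sodium pump, stood at 222 to 414 CPM and at 427 to 614 CPM. Ddc, the decarboxylase that makes dopamine and serotonin, stood at 0.379 to 81.8 CPM and at 85.3 to 117 CPM, a narrow gap. Its lowest level came from the medial hexagon of section 335 at dorsal-ventral coordinate 433, and the next medial level was 35.0 CPM. These genes are named because of this pattern, and the pattern is a description. In the edgeR fit the unadjusted p was 0.174 for Ddc and, among genes below, 0.0568 for Scn9a and 0.358 for Magohb. The other genes of both patterns stood under 0.05.

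Those below included Peg10, a paternally expressed imprinted gene, at 238 to 683 CPM in medial and 55.9 to 233 CPM in lateral hexagons. Cd63, a tetraspanin of late endosomes, stood at 245 to 339 CPM and at 128 to 205 CPM. Scn9a, a sodium channel subunit, stood at 210 to 303 CPM and at 151 to 197 CPM, and the transcription factor Stat3 at 45.6 to 132 CPM and at 3.99 to 35.5 CPM. Btg2, an immediate early gene, stood at 47.5 to 118 CPM and at 11.8 to 27.9 CPM. Naa60, an acetyltransferase, stood at 26.2 to 99.8 CPM and at 2.37 to 19.95 CPM, and its exons overlap Zfp597 and 1700037C18Rik on the other strand and Gm20695 on the same strand. Ascc2, a subunit of the activating signal cointegrator complex, stood at 45.6 to 101 CPM and at 7.98 to 45.5 CPM, a narrow gap.

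The other genes of smallest p, at a mean of 20 CPM or more and lower in lateral hexagons, included Dnmt1, Prrc2b, Trappc11, Nisch, Syndig1 and Sumf1. Dnmt1, the maintenance DNA methyltransferase, averaged 129 ± 43.1 CPM (n = 8) and 53.4 ± 14.5 CPM (n = 5), and was lower in 5 of 5 sections. Sumf1, which activates sulfatases, averaged 56.6 ± 26.3 and 7.63 ± 7.55 CPM. Syndig1, a membrane protein of synapses that binds AMPA receptors, averaged 31.96 ± 20.4 and 2.62 ± 3.04 CPM, with 1 medial and 2 lateral hexagons at 0. Their adjusted p-values ran from 0.220 to 0.289.

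The slope along the medial-lateral coordinate used all 24 low dorsal-ventral hexagons, the middle ones included. None of 8836 genes passed (0%), the smallest adjusted p was 0.107 for mt-Nd5, and 618 genes stood at an unadjusted p under 0.05. Per 100 units the log2 slope was 0.25 for mt-Nd5 (SE 0.05), -0.54 for Rorb (SE 0.13), -0.42 for Per1 (SE 0.10) and 0.88 for Calb2 (SE 0.25).

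Whether the lateral against medial difference was the same on the high dorsal-ventral side was tested as the difference between both sides, with 10 medial and 17 lateral hexagons at dorsal-ventral coordinates of 600 or more. Medial-lateral coordinates ran from 1374 to 1406 in low lateral and from 1363 to 1517 in high lateral hexagons. The sides thus also differ in how far lateral their hexagons reach, and the part of this was not tested. No gene of 11014 passed (0%), with 378 at an unadjusted p under 0.05 and a smallest adjusted p of 0.270. DESeq2 called 0. Per1 stood on that side at 209 CPM in medial and at 94.7 CPM in lateral hexagons, and the difference of its log2 changes was 0.10 (SE 0.34). Rorb averaged 1432 and 962 CPM there (difference -0.61, SE 0.36).

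Avp averaged 285 CPM in high medial and 305 CPM in high lateral hexagons, and the difference between sides was -1.84 (SE 1.02, edgeR adjusted p = 0.999). Penk averaged 115 and 71.8 CPM there (difference -0.86, SE 0.93). Mitochondrial shares on the high side were 1.35% ± 0.13 (n = 10) and 1.72% ± 0.40 (n = 17). mt-Nd5 averaged 1920 and 2563 CPM there, with a difference between sides of 0.20 (SE 0.15).

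Genes were named for the difference between sides only at a mean of 20 CPM or more, and none passed the threshold. Those of smallest p included Dlgap1, Grm5 and Trove2 with higher values and Cldnd1 and Syndig1 with lower ones. Dlgap1, a scaffold of the postsynaptic density, stood at 51.6 and 93.2 CPM in low medial and lateral hexagons and at 128 and 57.9 CPM in high ones (difference 2.00, SE 0.57). Grm5, a metabotropic glutamate receptor, stood at 73.3 and 109 CPM against 129 and 66.4 CPM (difference 1.598, SE 0.46). Syndig1 stood at 31.96 and 2.62 CPM against 9.58 and 21.2 CPM, and Cldnd1 at 119 and 57.1 CPM against 99.9 and 151 CPM. Unadjusted p-values in this set ran from 1.39e-04 to 0.00125, and every edgeR adjusted p was 0.765 or more. The smallest adjusted p of all genes, 0.270, belonged to a gene outside this set.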

How the data were processed

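RNA counts were read from the deposited table, which holds the authors' whole-number counts for 27515 genes. Per the submitters' processing notes the tools were STAR and bcl2fastq 2 and the build was GRCm38. Which program counted reads, with which annotation and strand setting, is not given in the sources used here. RPKM values were also deposited by the authors and served only to compare peptide levels. A gene needed at least 10 counts in at least 10 libraries to be tested, with edgeR 4.0.16 in R 4.3.3 (robust quasi-likelihood test, TMM scaling, Benjamini-Hochberg adjustment over all genes tested). The main model held 64 libraries of the 5 sections, 6 position groups and section as a factor (biological coefficient of variation 0.689). The rule named the 10 genes of smallest p in each direction with a mean of 20 CPM or more and the same sign in at least 4 of 5 sections, 3 per direction for the difference between sides, and always 8 markers and peptides. A gene that the rule named is not reported here. Library measures had exact permutation tests. DESeq2 1.42.0 was an alternative. The members and the gene lists were chosen with earlier results of these data known. The grouping of respiratory chain genes was chosen after seeing the values. Scripts were tested on simulated data. Gene positions are GENCODE M21 on GRCm38, and 9 of 32 named genes have exons that overlap another gene on the other strand, and 2 of these (Naa60 and Tuba1b) also on the same strand. Correlations of log2(CPM + 1) between the 13 hexagons ran from 0.591 to 0.759.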

Additional observations from a re-analysis of the deposited data

Results flagged for a closer look

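Dixon's test at the 95% level was applied to 70 groups of values, each being a gene or library measure in the 8 medial or the 5 lateral hexagons, and 9 held a hexagon that stood apart. Chance alone marks about 1 group in 20 if values are normally distributed, which was not tested here. The 9 can therefore not be read as an excess over chance. Of the 9, 6 were in medial and 3 in lateral hexagons.

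Section 287 gave 6 of the 9. Its medial hexagon at dorsal-ventral coordinate 512 held 1689 CPM of Vip, with the next medial hexagon at 406 CPM, as well as 56.2 CPM of Grp (next 21.9 CPM) and 73.4 CPM of Calb2 (next 35.0 CPM). Its lateral hexagon held 519 CPM of Vip (next 128 CPM), 658 CPM of Prok2 (next 160 CPM) and 87.8 CPM of Cldnd1 (next 57.3 CPM).

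The medial hexagon of section 191 held 787 CPM of Nisch (next 437 CPM). The medial hexagon of section 239 held 122 CPM of Dlgap1 (next 51.3 CPM). The medial hexagon of section 335 at dorsal-ventral coordinate 433 had the deepest library, with 2843366 counts against 1083613 in the next.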

How the results depend on the processing

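The count of 0 genes for lateral against medial stayed at 0 under 26 alternatives and was above 0 under 6. It was 1 (mt-Nd5) with the dorsal-ventral coordinate as a covariate and in the fit of the 24 low dorsal-ventral hexagons, an alternative chosen after seeing the data. It was 21 with DESeq2 and 65 (28 higher, 37 lower) with no filter on low counts, where the difference between sides gave 23 (8 higher, 15 lower). In that unfiltered fit gene-specific spread was not used for any of the 20791 genes. Leaving out single hexagons gave 0 to 1, the 1 (mt-Nd5) without the medial hexagon of section 143 or the lateral one of section 239. The slope gave 1 gene with the dorsal-ventral coordinate as a covariate (mt-Nd5) and 1 without section 143 (Dlk1).

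The mitochondrial share differed by 0.436 points with medial hexagons at a dorsal-ventral coordinate of 430 or more, by 0.422 without section 191, 0.402 without section 287 and 0.402 without section 335, none past an adjusted p of 0.05. Leaving out single hexagons gave 0.355 to 0.534 points. With the shallow library kept it was -0.290 points, and genes detected differed by 479.8 (lateral higher). Total counts differed by -28802.2 without section 143. These library-measure alternatives were chosen after seeing the data, and the causes were not tested.

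Values for Cck and Grp, low in both groups, changed sign. Cck was 0.27 without the section term, 0.013 in the 24 hexagons and 0.0395 without section 287. Grp was -0.30 with DESeq2, -0.17 with medial hexagons at 430 or more and -0.88 without section 335, and -0.11 to 1.05 with single hexagons left out. No other gene checked changed sign for lateral against medial. Dlgap1, Grm5, Trove2 and Cldnd1, named only for the difference between sides, were not part of this check.

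By replicate number, no paired analysis was possible because the labels carry none. The labels do give sections, and section served as the block instead. It is a factor in the fit across genes. The mitochondrial share differed by 0.444 points when hexagons were exchanged within sections only (exact permutation adjusted p = 0.0417). That block test was added after seeing the data, uses the same hexagons and is not separate evidence. Precision is limited by 5 lateral hexagons and by totals from 219947 counts.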
